A study of Rattus norvegicus with 12 samples.

Results

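The genes described here are the matrix metalloproteinases (Mmp), the ADAMTS proteases (Adamts), the ADAMTS-like proteins (Adamtsl) and the tissue inhibitors of metalloproteinases (Timp) in cultured fetal rat metatarsal bones. They were picked out by symbol, and all symbols of these 4 families were taken apart from Mmp9 and Mmp13, which left 48 of the 30045 symbols counted. The choice of these families was made with earlier results of these data known. Of the 48, 34 had 60 or more counts in at least 2 libraries and were tested together with all other genes above that minimum, 12602 in all. The bones came from Sprague Dawley rats at embryonic day 19, and were kept for 72 h in standard culture medium alone (control), with dexamethasone at 1 µM, with LiCl at 10 mM, or with both drugs (dexamethasone + LiCl). Control and LiCl media carried the ethanol in which dexamethasone was dissolved. Each condition had 3 libraries, each from a pool of about 20 bones. The study drew each pool from 1 rat and used 3 rats, so that the conditions share animals, while the labels do not say which rat a pool number stands for. The study asked whether LiCl protects growing bone from dexamethasone.

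Matrix metalloproteinases are zinc endopeptidases that cleave collagens, proteoglycans and other proteins outside the cell, and in growing cartilage they clear matrix ahead of invading vessels and bone. ADAMTS proteases cut proteoglycans such as aggrecan and versican, trim procollagens, or act on fibrillin microfibrils, while ADAMTS-like proteins share their binding modules without the catalytic part. TIMPs block metalloproteinases by binding their active site, and Timp3, which is held in the matrix, also blocks several ADAMTS proteases.

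Total counts per library were 9055581 to 21953446. Levels are in CPM, counts scaled to a common library size, and are compared within a gene only, since gene lengths were not used. Log2 CPM values correlated at 0.980 to 0.993 between libraries of a condition and at 0.949 to 0.982 between conditions. All 8 cartilage markers checked (Sox9, Acan, Col2a1 and others) passed the count minimum, with summed levels of 56082 to 92879 CPM. In whole bones, fewer cells of a type and less RNA per cell cannot be told apart. The 48 genes took 0.315 to 0.344% of all counts in the control libraries, 0.260 to 0.272% with dexamethasone, 0.323 to 0.346% with LiCl and 0.258 to 0.287% with dexamethasone + LiCl, so that the 6 libraries with dexamethasone lay below the 6 without it. This share mostly reflects the genes with most counts. In control pool 1, Mmp2 held 16495 and Mmp14 15120 of the 75576 counts.

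With dexamethasone, 17 of the 34 tested genes changed at an adjusted p under 0.05, against a background of 10.9% of all tested genes. Of these, 6 rose and 11 fell, where 5.45% of all tested genes rose and 5.49% fell. Adamtsl4 and Timp4 rose and Mmp15 fell by more than 2-fold, as 2.84% of all tested genes did in either direction. LiCl alone changed 11 of the 34 genes, where the background was 10.6%. Mmp2 rose (background 4.71%) and the other 10 fell (background 5.9%), with Mmp3, Adamtsl2, Adamts6 and Mmp11 past 2-fold (background 1.58%). When LiCl was added to dexamethasone, 12 genes changed as compared to dexamethasone alone, and the background was 8.6%. Mmp2 again rose (background 3.82%) and 11 fell (background 4.78%), with Mmp3 and Timp4 past 2-fold (background 1.36%). Dexamethasone added to LiCl changed 12 genes as compared to LiCl alone, with a background of 6.87%. Upward went 5 (background 3.79%) and downward 7 (background 3.09%), with Adamtsl4, Timp4 and Mmp15 past 2-fold (background 2.01%). Both drugs together changed 19 genes as compared to control, 5 upward (background 10.8%) and 14 downward (background 11.8%), and the overall background was 22.6%. By more than 2-fold, 8 of these 19 changed (background 4.37%), with Adamtsl4 and Timp4 higher and Mmp3, Mmp11, Mmp15, Adamts6, Adamts17 and Adamtsl2 lower. Leaving out dexamethasone pool 3 or dexamethasone + LiCl pool 3 took the count for LiCl added to dexamethasone from 12 to 7, and leaving out LiCl pool 1 or dexamethasone + LiCl pool 2 did the same for dexamethasone added to LiCl. The median log2 fold change of the 34 genes was -0.11 with dexamethasone, -0.20 with LiCl and -0.20 with both, where the medians of all tested genes were 0.00, 0.00 and 0.01.

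**Figure D1:**
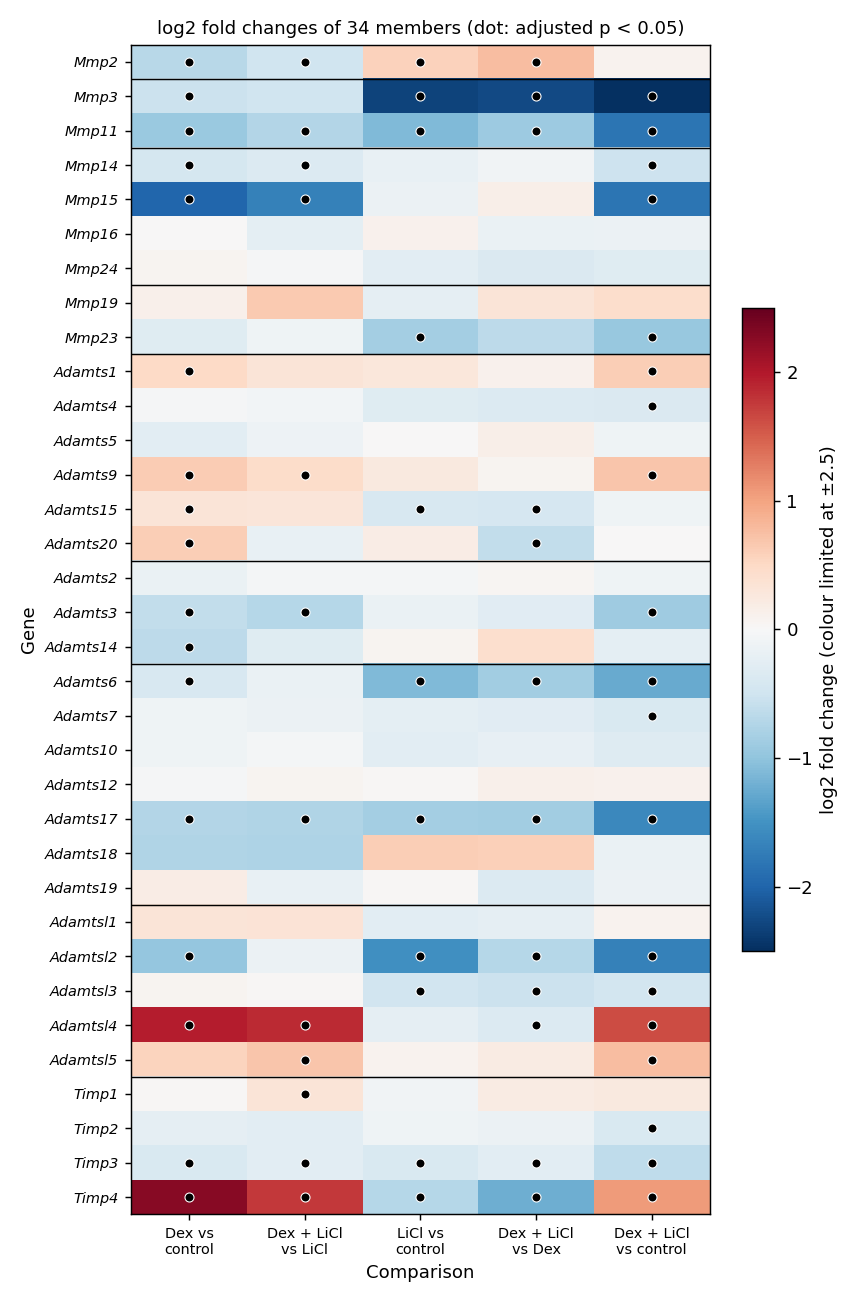
Log2 fold changes (colour, limited at ±2.5) of the 34 tested genes (rows, with lines between functional groups) in 5 comparisons (columns); a dot marks an adjusted p under 0.05 in edgeR's quasi-likelihood test. Mmp3 is darkest in the 3 comparisons that add LiCl, at -2.31, -2.26 and -2.80, and Adamtsl4 and Timp4 are reddest where dexamethasone was added.

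Mmp3 showed the largest LiCl effect of the 34 tested genes. It encodes stromelysin-1, which degrades proteoglycans and non-fibrillar collagens and activates the precursors of other MMPs. Its level was 44.6, 49.8 and 37.1 CPM in the 3 control pools and 32.8, 25.1 and 32.4 CPM with dexamethasone. With LiCl it was 10.1, 9.07 and 7.36 CPM, and with dexamethasone + LiCl 8.09, 6.30 and 4.91 CPM. Every pool with LiCl thus lay below every pool without it, whether or not dexamethasone was present. LiCl lowered Mmp3 with a log2 fold change of -2.31 ± 0.17 (SE) in standard medium (4.97-fold lower, adjusted p = 6.62e-07). In the presence of dexamethasone the LiCl effect was -2.26 ± 0.18 (adjusted p = 3.89e-06). Dexamethasone alone lowered Mmp3 by less, with a log2 fold change of -0.54 ± 0.15 (adjusted p = 0.033). That last call was lost, at adjusted p values of 0.0534 to 0.149, without control pool 1 or 2 or dexamethasone pool 1 or 2. With both drugs Mmp3 was 6.98-fold below control (log2 fold change -2.80 ± 0.18, adjusted p = 3.39e-08).

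In the RefSeq gene table of the rat, Mmp3 stands in an uninterrupted row of 10 MMP genes on chromosome 8, in the order Mmp13, Mmp12, Mmp1b, Mmp3, Mmp1, Mmp10, Mmp8, Mmp27, Mmp20 and Mmp7. The promoters of Mmp3 and of 2 neighbours with measurable counts, Mmp10 and Mmp12, are printed because these genes were lower with LiCl than in control and share letters near the start. Mmp12 was lowest with dexamethasone. The sequences are RefSeq's, from build GRCr8, and run from 250 bases before to 50 bases after the start of the gene, on the plus strand. They cover chr8:12925031-12925330 for Mmp3, chr8:12974457-12974756 for Mmp10 and chr8:12866402-12866701 for Mmp12. Capitals mark TGAGTCA, the word bound by AP-1, and TATAAA, the core of the TATA box, each searched on both strands.
Mmp3: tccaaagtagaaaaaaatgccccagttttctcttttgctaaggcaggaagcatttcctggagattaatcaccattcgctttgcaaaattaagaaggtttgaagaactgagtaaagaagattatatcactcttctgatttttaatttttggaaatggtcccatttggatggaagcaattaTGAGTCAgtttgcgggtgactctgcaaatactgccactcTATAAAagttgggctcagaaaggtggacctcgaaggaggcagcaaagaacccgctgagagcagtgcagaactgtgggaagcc
Mmp10: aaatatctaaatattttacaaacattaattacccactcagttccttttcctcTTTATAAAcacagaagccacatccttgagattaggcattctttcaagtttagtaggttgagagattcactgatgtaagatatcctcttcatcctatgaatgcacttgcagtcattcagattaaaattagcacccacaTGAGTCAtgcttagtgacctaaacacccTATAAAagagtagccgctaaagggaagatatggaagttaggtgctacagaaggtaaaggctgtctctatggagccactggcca
Mmp12: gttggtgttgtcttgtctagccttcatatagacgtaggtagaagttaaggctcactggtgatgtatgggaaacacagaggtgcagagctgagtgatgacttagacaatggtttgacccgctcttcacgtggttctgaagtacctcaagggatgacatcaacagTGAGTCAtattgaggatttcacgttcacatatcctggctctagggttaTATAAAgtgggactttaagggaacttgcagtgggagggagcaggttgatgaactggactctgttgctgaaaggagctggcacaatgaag
The AP-1 word begins 71 bases before the start of Mmp3, 61 before that of Mmp10 and 87 before that of Mmp12, and TATAAA lies 32, 33 and 39 bases before the start. Mmp10 holds a further TATAAA on each strand far upstream, where the words overlap. Of the 38 genes of these families with a promoter in the table, 5 held TGAGTCA (Mmp1, Mmp3, Mmp7, Mmp10 and Mmp12), all in this row, as did 4.63% of 33469 rat promoter windows of the same length. TATAAA was found for 13 of the 38, and in 14.2% of all windows. The full palindromic glucocorticoid response element was in none of the 38 promoters and in 0.0149% of all windows, and the TCF/LEF word CTTTGAT was in 1 (Mmp7) and in 3.63% of all windows. A match is a match of letters and does not show that a factor binds.

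Mmp10, stromelysin-2, and Mmp12, the macrophage metalloelastase, stayed under the count minimum. Mmp10 had 36, 9 and 44 counts in the control pools and 21, 17 and 19 with dexamethasone, as against 7, 3 and 9 with LiCl and 3, 6 and 10 with dexamethasone + LiCl. In CPM the 6 libraries with LiCl lay at 0.157 to 0.584 and the 6 without it at 0.836 to 2.22. Under a looser count filter that tested 15274 genes, the adjusted p for Mmp10 was 0.00446 for LiCl against control and 0.019 for LiCl added to dexamethasone. Mmp10 entered that fit only through the libraries without LiCl, where it was higher, so these values are no separate support for the fall.

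Mmp12 had 67, 22 and 28 counts in the control pools and 0 in all 3 dexamethasone pools, where a count of 0 allows up to 3 counts or 0.252 to 0.336 CPM. LiCl pools held 8, 3 and 2 counts, and dexamethasone + LiCl pools 0, 0 and 1. Every treated library was therefore below every control library. Under the looser filter the adjusted p was 0.00023 for dexamethasone and 0.00177 for LiCl, each against control. Mmp12 entered that fit only through the control libraries, where it was high, so these values are no separate support for the fall. Macrophage markers moved the other way with dexamethasone and the same way with LiCl. The summed level of 6 of them was 72.3 to 108 CPM in control and 168 to 194 CPM with dexamethasone, none at 0, with 4 of 6 higher and 1 lower. With LiCl it was 65.4 to 68.2 CPM, none at 0, with 2 of 6 lower and none higher. The 6 osteoclast markers summed to 116 to 131 CPM in control, 84.3 to 97.4 CPM with dexamethasone and 81.7 to 98.2 CPM with LiCl, with Dcstamp at 0 in each of these conditions and Calcr at 0 with dexamethasone. The part of either cell type in the Mmp12 result was not tested.

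**Figure D2:**
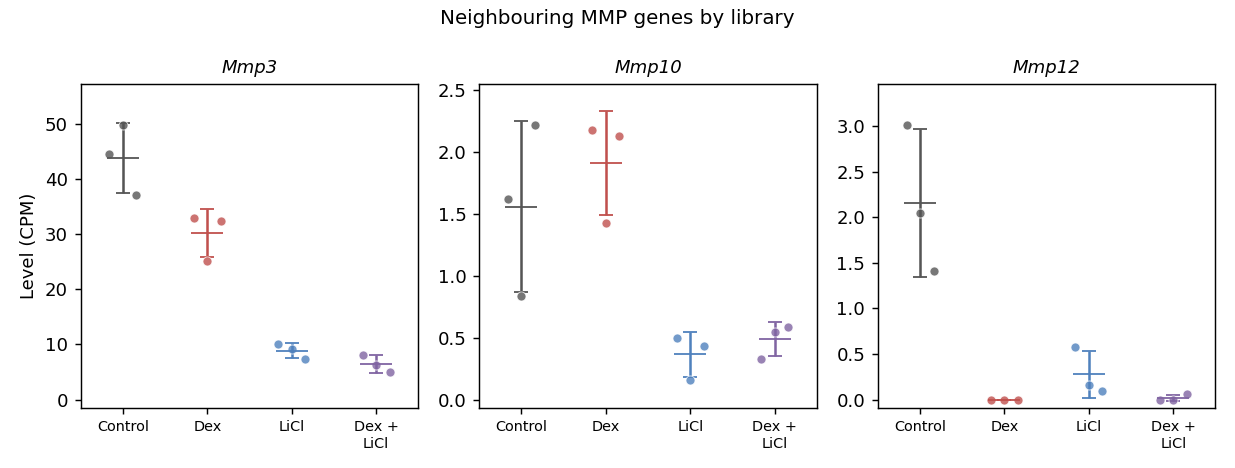
Level in CPM (vertical axis, linear) of the neighbouring genes Mmp3, Mmp10 and Mmp12 in each of the 4 conditions; points are the 3 libraries, the long bar is the mean and the whiskers are ± SD. Mmp3 and Mmp10 are low in all 6 libraries with LiCl, whereas Mmp12 is at 0 in the 3 dexamethasone libraries.

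Mmp11, stromelysin-3, which is activated inside the cell by furin, fell with each drug and further with both. It was at 21.1, 26.8 and 21.3 CPM in control and at 10.97, 13.7 and 11.1 CPM with dexamethasone. LiCl pools had 9.96 to 11.9 CPM and dexamethasone + LiCl pools 6.01 to 6.84 CPM. The 4 conditions fell into 3 levels, because dexamethasone and LiCl pools overlapped while control lay above and the combination below. The log2 fold change from control was -0.94 ± 0.13 with dexamethasone (adjusted p = 1.87e-04), -1.09 ± 0.13 with LiCl (adjusted p = 7.48e-05) and -1.84 ± 0.14 with both (adjusted p = 2.01e-07). Added to dexamethasone, LiCl changed it by a further -0.90 ± 0.15 on the log2 scale (adjusted p = 0.00165).

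Mmp2, a gelatinase that cleaves denatured collagen and type IV collagen, moved in opposite directions with the 2 drugs. It was at 649 to 763 CPM in control, 400 to 491 CPM with dexamethasone, 1015 to 1161 CPM with LiCl and 716 to 820 CPM with both. Control and dexamethasone + LiCl overlapped, while the other conditions stood apart on either side. Dexamethasone lowered Mmp2 with a log2 fold change of -0.69 ± 0.10 (adjusted p = 2.08e-04) and LiCl raised it by 0.59 ± 0.10 (adjusted p = 0.00147). LiCl added to dexamethasone raised it by 0.78 ± 0.10 (adjusted p = 1.60e-04). The combination differed from control by 0.09 ± 0.10 on the log2 scale, which did not pass the test (adjusted p = 0.574).

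Among the membrane-type MMPs, which are tethered to the cell surface, Mmp15 had the largest dexamethasone effect. It was at 6.35, 5.94 and 5.59 CPM in control and 5.57, 5.35 and 5.33 CPM with LiCl. With dexamethasone it was at 1.66, 1.43 and 1.46 CPM, and with dexamethasone + LiCl at 1.53, 2.10 and 1.46 CPM. All 6 dexamethasone libraries lay below all 6 others. In counts, those with dexamethasone held 13 to 25 and those without it 64 to 141. Mmp15 thus met the minimum of 60 counts only through the libraries in which it was high, and its tests rest on that. Dexamethasone gave a log2 fold change of -1.98 ± 0.20 in standard medium (3.93-fold lower, adjusted p = 7.80e-06) and -1.68 ± 0.19 in the presence of LiCl (adjusted p = 3.47e-05). Endothelial markers moved with it. The 9 markers checked, none at 0, summed to 228 to 264 CPM in control, 96.4 to 101 CPM with dexamethasone, 207 to 230 CPM with LiCl and 106 to 115 CPM with both, and 8 of the 9 fell with dexamethasone. Their part in the Mmp15 result was not tested.

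Mmp14, which activates pro-Mmp2 at the cell surface with the help of Timp2, ranged from 409 to 681 CPM. It fell with dexamethasone (log2 fold change -0.44 ± 0.10, adjusted p = 0.00729) and with both drugs as compared to control (-0.52 ± 0.10, adjusted p = 0.0011). Dexamethasone added to LiCl gave -0.34 ± 0.10 (adjusted p = 0.0458), a call lost at adjusted p values of 0.051 to 0.195 without control pool 1, dexamethasone pool 1 or any LiCl or dexamethasone + LiCl pool. Mmp16 (119 to 176 CPM) and Mmp24 (3.15 to 5.79 CPM) passed no test. Mmp17 reached 1 count and Mmp25, a membrane-type MMP of leukocytes, 20 counts.

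The remaining MMPs were low. Mmp23, which lacks the usual activation switch, was at 9.22 to 15.4 CPM in control and 5.98 to 7.51 CPM with LiCl, and fell with LiCl (log2 fold change -0.85 ± 0.21, adjusted p = 0.0154). Without control pool 2 or LiCl pool 2 this was lost, at adjusted p values of 0.0522 to 0.0711. With both drugs Mmp23 also fell as compared to control (-0.95 ± 0.21, adjusted p = 0.00463). Mmp19 ranged from 3.97 to 8.96 CPM and passed no test. For Mmp19 a fit that included the replicate number gave adjusted p values of 0.013 for dexamethasone added to LiCl and 0.0438 for both drugs against control. The collagenase Mmp8 reached 5 counts, Mmp1b 2, the enamel protease Mmp20 1, Mmp21 6 and Mmp28 29. Mmp1, Mmp7 and Mmp27 had 0 counts in all 12 libraries, which allows up to 0.135 to 0.336 CPM in each.

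**Figure D3:**
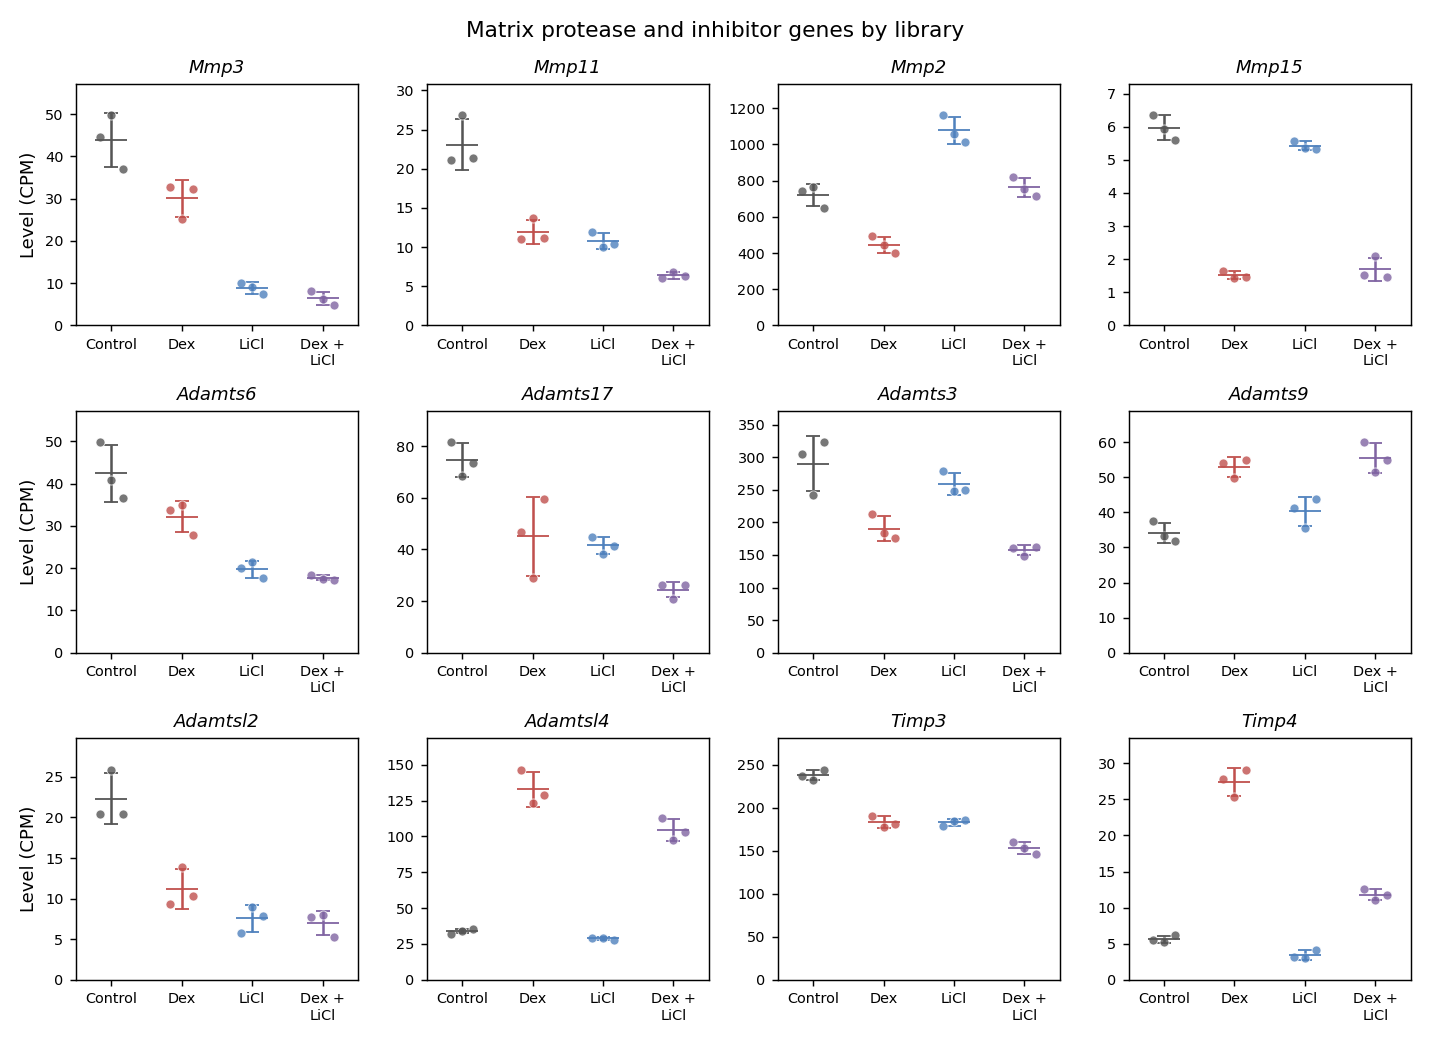
Level in CPM (vertical axes, linear and starting at 0, a different range for each gene) of 12 genes in the 4 conditions; points are the 3 libraries, the long bar is the mean and the whiskers are ± SD. Mmp3 and Adamts6 separate by LiCl, Mmp15 and Adamtsl4 by dexamethasone, and Mmp11, Adamts17 and Timp3 are lowest where both drugs were given.

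The ADAMTS proteoglycanases, which cut aggrecan and versican, were the group in which dexamethasone increases prevailed in standard medium. Of 6 tested members, 4 rose and none fell with dexamethasone, where 5.45% of all tested genes rose. In the presence of LiCl, dexamethasone raised 1 of the 6 (Adamts9) and lowered none, where 3.79% of all tested genes rose. Adamts9 was at 31.9 to 37.5 CPM in control, 49.7 to 55.0 CPM with dexamethasone, 35.6 to 43.9 CPM with LiCl and 51.6 to 59.99 CPM with both. It rose with dexamethasone in standard medium (log2 fold change 0.63 ± 0.10, adjusted p = 4.75e-04) and in the presence of LiCl (0.46 ± 0.10, adjusted p = 0.00703). Adamts1, a versican-cleaving protease, rose from 44.6 ± 8.08 to 63.3 ± 2.41 CPM (mean ± SD, n = 3) with dexamethasone (log2 fold change 0.49 ± 0.11, adjusted p = 0.00931). LiCl against control gave 0.29 ± 0.11 for Adamts1 (adjusted p = 0.117), and 0.0354 once the replicate number was a term. Dexamethasone added to LiCl gave 0.32 ± 0.11 (adjusted p = 0.12), and 0.0341 with that term. With both drugs Adamts1 rose as compared to control (0.61 ± 0.11, adjusted p = 0.00108).

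Adamts15 and Adamts20 rose with dexamethasone and fell when LiCl was added to it. Adamts20, a versicanase needed for pigment patterning in mice, was at 6.87 to 10.6 CPM in control, 14.0 to 14.9 CPM with dexamethasone and 8.85 to 10.0 CPM with both. The log2 fold change was 0.62 ± 0.15 with dexamethasone (adjusted p = 0.0129) and -0.61 ± 0.15 with LiCl added to dexamethasone (adjusted p = 0.0235). The first call was lost at 0.0515 when only control and dexamethasone libraries were fitted. The second was lost, at adjusted p values of 0.0553 to 0.0829, without any 1 of the dexamethasone pools or of dexamethasone + LiCl pools 1 and 3. Dexamethasone added to LiCl gave -0.18 ± 0.15 for Adamts20 (adjusted p = 0.664). Adamts15 ranged from 22.7 to 40.7 CPM and gave 0.31 ± 0.09 with dexamethasone (adjusted p = 0.031), -0.40 ± 0.09 with LiCl (adjusted p = 0.00933) and -0.42 ± 0.09 with LiCl added to dexamethasone (adjusted p = 0.00997). The first of these was lost at 0.0686 to 0.135 without control pool 2 or 3 or dexamethasone pool 1 or 2, the second at 0.0523 without LiCl pool 3 and the third at 0.0555 without dexamethasone + LiCl pool 3. Dexamethasone added to LiCl gave 0.29 ± 0.09 for Adamts15 (adjusted p = 0.066), and 0.0377 in the fit with the replicate number.

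The aggrecanases studied most in joint disease changed little. Adamts5 (8.17 to 11.3 CPM) passed no test. Adamts4 (11.8 to 17.7 CPM) fell with both drugs as compared to control (log2 fold change -0.36 ± 0.11, adjusted p = 0.0307), which was lost at 0.0817 to 0.134 without control pool 1 or dexamethasone + LiCl pool 1 or 2. Adamts8 stayed under the count minimum with at most 63 counts.

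Procollagen N-proteinases remove the amino-terminal propeptide of fibrillar procollagens. Adamts3, which processes procollagen II and also activates the lymphatic growth factor Vegfc, was at 242 to 323 CPM in control, 176 to 212 CPM with dexamethasone, 248 to 279 CPM with LiCl and 149 to 163 CPM with both. The 6 dexamethasone libraries lay below the 6 others. For dexamethasone the log2 fold change was -0.61 ± 0.11 in standard medium (adjusted p = 0.00119) and -0.72 ± 0.11 in the presence of LiCl (adjusted p = 4.03e-04). Adamts14 fell from 34.02 ± 1.16 to 21.6 ± 3.86 CPM (mean ± SD, n = 3) with dexamethasone (log2 fold change -0.66 ± 0.13, adjusted p = 0.0027). LiCl added to dexamethasone gave 0.42 ± 0.13 for Adamts14, which did not pass the test, and the fit with the replicate number gave an adjusted p of 0.0148. Adamts2, at 50.4 to 66.8 CPM, passed no test.

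Adamts6 and Adamts17 belong to the ADAMTS proteases tied to fibrillin microfibrils, and both fell with LiCl. Adamts6 was at 49.7, 40.9 and 36.6 CPM in control, 33.6, 34.8 and 27.9 CPM with dexamethasone, 20.1, 21.4 and 17.6 CPM with LiCl and 18.4, 17.5 and 17.2 CPM with both. All 6 LiCl libraries lay below all 6 others. With LiCl the log2 fold change was -1.11 ± 0.12 in standard medium (2.16-fold lower, adjusted p = 3.40e-05) and -0.87 ± 0.13 in the presence of dexamethasone (adjusted p = 6.70e-04). Dexamethasone alone gave -0.40 ± 0.12 (adjusted p = 0.0456), and the adjusted p rose to between 0.0526 and 0.185 when any 1 library was left out other than control pool 3, dexamethasone pool 2 or LiCl pool 3. Fitted on control and dexamethasone libraries alone it was 0.124.

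Adamts17, whose loss in people causes short stature with lens and joint changes, fell with each drug. Its levels were 81.6, 68.5 and 73.6 CPM in control, 46.9, 29.0 and 59.5 CPM with dexamethasone, 45.0, 38.2 and 41.5 CPM with LiCl and 26.2, 21.0 and 26.2 CPM with both. Control pools lay above all others and the combination below, and the dexamethasone pools spread most. The log2 fold change from control was -0.74 ± 0.18 with dexamethasone (adjusted p = 0.0123), -0.85 ± 0.17 with LiCl (adjusted p = 0.00579) and -1.61 ± 0.18 with both (3.05-fold lower, adjusted p = 1.33e-05). LiCl added to dexamethasone gave -0.87 ± 0.19 (adjusted p = 0.01), lost at 0.051 without dexamethasone pool 3. Dexamethasone added to LiCl gave -0.76 ± 0.18 (adjusted p = 0.0184), lost at 0.0597 to 0.1 without LiCl pool 1 or 3 or dexamethasone + LiCl pool 2.

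The other ADAMTS proteases moved less. Adamts10, the close relative of Adamts6 (136 to 210 CPM), Adamts12 (31.1 to 49.0 CPM) and Adamts19 (9.93 to 16.2 CPM) passed no test, and Adamts16 reached 19 counts. In the fit with the replicate number Adamts10 fell with both drugs as compared to control (adjusted p = 0.0172). Adamts7, which like Adamts12 cleaves Comp, ranged from 24.8 to 35.5 CPM and fell with both drugs as compared to control (log2 fold change -0.39 ± 0.09, adjusted p = 0.0068). Adamts18 spread widely, from 3.69 to 16.9 CPM, and passed no test. Its log2 fold change was -0.75 ± 0.27 with dexamethasone, 0.61 ± 0.24 with LiCl and -0.77 ± 0.25 with dexamethasone added to LiCl. The fit with the replicate number gave adjusted p values of 0.0386, 0.0295 and 0.0158 for these.

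ADAMTS-like proteins held both a strong increase and a strong decrease. Adamtsl4, which binds fibrillin-1 and whose loss displaces the lens in people, was at 32.1, 34.3 and 35.1 CPM in control and 29.4, 29.1 and 28.0 CPM with LiCl. With dexamethasone it was at 146.6, 123 and 128.5 CPM, and with dexamethasone + LiCl at 113, 97.7 and 103 CPM. All 6 libraries with dexamethasone lay above all 6 without it. With dexamethasone the log2 fold change was 1.97 ± 0.09 in standard medium (3.92-fold higher, adjusted p = 1.13e-09) and 1.86 ± 0.09 in the presence of LiCl (3.62-fold higher, adjusted p = 5.78e-09). Adding LiCl to dexamethasone changed it by -0.35 ± 0.08 on the log2 scale (adjusted p = 0.0169), a call lost at 0.0627 to 0.0879 without dexamethasone pool 1 or dexamethasone + LiCl pool 2 or 3. LiCl alone gave -0.23 ± 0.09 (adjusted p = 0.109).

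Adamtsl2, whose loss in people causes geleophysic dysplasia with short bones, fell with each drug. It was at 20.5, 25.9 and 20.4 CPM in control, 9.31, 13.9 and 10.3 CPM with dexamethasone, 5.79, 8.97 and 7.89 CPM with LiCl and 7.76, 7.94 and 5.26 CPM with both. LiCl pools and combination pools overlapped, below the dexamethasone pools, and control stood alone at the top. The log2 fold change from control was -0.97 ± 0.19 with dexamethasone (adjusted p = 0.00291), -1.54 ± 0.19 with LiCl (2.90-fold lower, adjusted p = 1.11e-04) and -1.69 ± 0.20 with both (adjusted p = 1.76e-05). Adding LiCl to dexamethasone gave -0.72 ± 0.21 (adjusted p = 0.0481), which rose to between 0.0509 and 0.204 when any 1 library other than control pool 2 or LiCl pool 1 was left out.

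Adamtsl3 (17.5 to 32.2 CPM) fell with LiCl in standard medium (log2 fold change -0.48 ± 0.11, adjusted p = 0.0119) and in the presence of dexamethasone (-0.54 ± 0.12, adjusted p = 0.0107). The latter was lost at 0.0507 to 0.0551 without dexamethasone pool 3 or dexamethasone + LiCl pool 1. Adamtsl5 (16.6 to 43.8 CPM) rose when dexamethasone was added to LiCl (0.68 ± 0.18, adjusted p = 0.0327) and with both drugs as compared to control (0.77 ± 0.18, adjusted p = 0.00677). The former was lost at 0.0686 to 0.18 without LiCl pool 1 or 2 or dexamethasone + LiCl pool 2 or 3. Dexamethasone alone gave 0.56 ± 0.19 for Adamtsl5 (adjusted p = 0.0687), and 0.018 in the fit with the replicate number. Adamtsl1, at 37.9 to 66.0 CPM, passed no test.

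The 4 inhibitors went different ways. Timp4, an inhibitor known mainly from heart, muscle and fat, was at 5.45, 5.20 and 6.20 CPM in control and at 27.8, 25.3 and 29.1 CPM with dexamethasone. LiCl pools had 3.14, 2.99 and 4.17 CPM and dexamethasone + LiCl pools 12.6, 11.04 and 11.7 CPM. The 4 conditions did not overlap, in the rising order LiCl, control, dexamethasone + LiCl and dexamethasone. Dexamethasone raised Timp4 with a log2 fold change of 2.28 ± 0.14 (4.85-fold, adjusted p = 2.53e-08), and in the presence of LiCl by 1.76 ± 0.15 (adjusted p = 1.25e-06). LiCl changed it by -0.71 ± 0.15 on the log2 scale in standard medium (adjusted p = 0.0086) and by -1.22 ± 0.13 in the presence of dexamethasone (adjusted p = 3.86e-05). Fitted on control and LiCl libraries alone, the first of these had an adjusted p of 0.0531.

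Markers of fat were lowest with LiCl, as Timp4 was, and their sums overlapped among the other conditions. The 6 adipocyte markers summed to 20.2 to 35.8 CPM in control, 28.0 to 45.6 CPM with dexamethasone, 4.89 to 7.50 CPM with LiCl and 24.7 to 35.9 CPM with both, with Lep at 0 in the 3 treated conditions. Only 2 of the 6 passed the count minimum. Against control, 1 of these fell with dexamethasone, 2 with LiCl and 1 with both, and none rose. Timp4 rose with dexamethasone and with both. The 8 skeletal muscle markers summed to 21.1 to 22.1 CPM in control, 37.4 to 64.6 CPM with dexamethasone, 38.4 to 44.2 CPM with LiCl and 127 to 161 CPM with both, with Myod1 at 0 with dexamethasone alone. Muscle markers were thus highest in the combination, where Timp4 was below its dexamethasone level. The part of fat or muscle in the Timp4 values was not tested.

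Timp3 fell in all 5 comparisons, by less than 2-fold in each. It was at 237, 232 and 244 CPM in control, 191, 178 and 181 CPM with dexamethasone, 178, 184 and 186 CPM with LiCl and 160.5, 153 and 146 CPM with both. Control lay above and the combination below the single drugs, which overlapped. The log2 fold change was -0.38 ± 0.07 with dexamethasone (adjusted p = 0.00188), -0.38 ± 0.07 with LiCl (adjusted p = 0.00237) and -0.63 ± 0.07 with both (adjusted p = 8.62e-06), each against control. LiCl added to dexamethasone gave -0.26 ± 0.07 (adjusted p = 0.0329), lost at 0.051 to 0.132 without dexamethasone pool 1 or 3, LiCl pool 2 or 3 or any dexamethasone + LiCl pool. Dexamethasone added to LiCl gave -0.26 ± 0.07 (adjusted p = 0.0372), lost at 0.0512 to 0.167 without control pool 1 or any LiCl or dexamethasone + LiCl pool.

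Timp1, the soluble inhibitor often raised in injured tissue, was at 45.2, 42.1 and 36.4 CPM in control, 46.7, 40.4 and 38.8 CPM with dexamethasone, 37.7, 39.4 and 39.3 CPM with LiCl and 47.2, 50.8 and 47.9 CPM with both. The combination pools lay above the rest. Timp1 rose when dexamethasone was added to LiCl (log2 fold change 0.33 ± 0.09, adjusted p = 0.0499), a call lost at 0.0971 to 0.185 without any 1 of these 6 pools. Both drugs against control gave 0.24 ± 0.09 (adjusted p = 0.0829), and 0.0498 in the fit with the replicate number. Timp2, the cofactor of Mmp14, was at 283, 291 and 264 CPM in control, 239, 207.5 and 267 CPM with dexamethasone, 283, 247 and 244 CPM with LiCl and 214, 199 and 232 CPM with both. Timp2 passed only with both drugs as compared to control (log2 fold change -0.38 ± 0.10, adjusted p = 0.0122), and lost the call at 0.0625 without dexamethasone + LiCl pool 2.

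Each drug's effect could be read from libraries that the other reading did not use. The readings are not independent, since the study drew the pools of all conditions from the same rats. The same fit, with a shared estimate of the spread, also gave both. Dexamethasone was compared with control and, in separate libraries, dexamethasone + LiCl with LiCl. Both comparisons changed 10 of the 34 genes in the same direction, namely Adamtsl4, Timp4 and Adamts9 upward and Mmp15, Mmp11, Mmp2, Mmp14, Adamts3, Adamts17 and Timp3 downward. These were 58.8% of the genes called in the first and 83.3% of those called in the second, where over all tested genes 675 shared calls made up 48.9% and 77.9%. LiCl against control and dexamethasone + LiCl against dexamethasone likewise shared 10 calls, with Mmp2 upward and Mmp3, Mmp11, Adamts6, Adamts15, Adamts17, Adamtsl2, Adamtsl3, Timp3 and Timp4 downward. They were 90.9% and 83.3% of the calls, where over all tested genes 609 shared calls made up 45.5% and 56.2%.

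**Figure D4:**
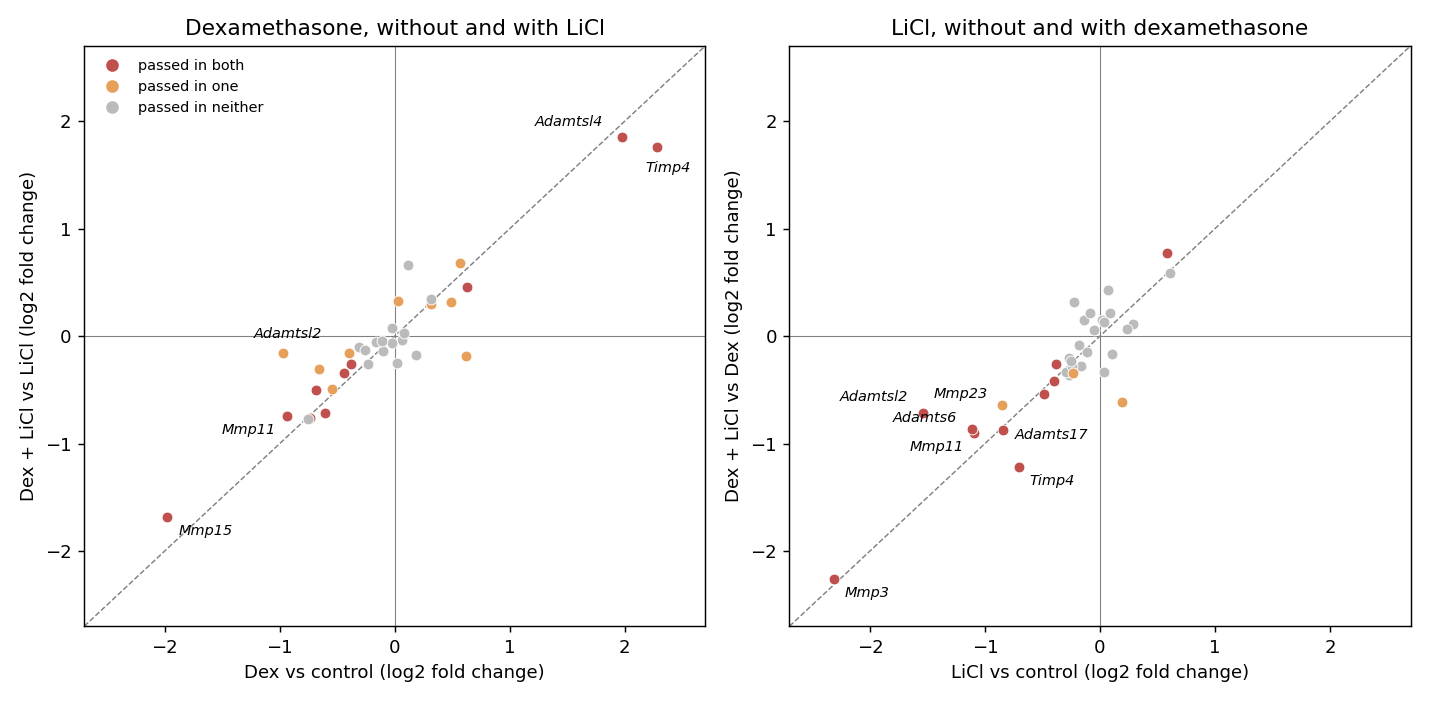
Log2 fold changes of the 34 tested genes for dexamethasone without LiCl (horizontal) and with LiCl (vertical), left, and for LiCl without and with dexamethasone, right; points are genes, colours give whether the adjusted p was under 0.05, and the dashed line marks equal values. Mmp15 lies at -1.98 and -1.68 on the left and Mmp3 at -2.31 and -2.26 on the right, both near the line, while Adamtsl2 lies off it.

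Whether one drug altered the effect of the other was tested as an interaction. In edgeR's quasi-likelihood test none of the 34 genes passed, and in DESeq2 none did, against a background of 0.00794% and 25 genes over all tested. An unadjusted p under 0.05 was reached by 4 of the 34, Adamts20, Adamtsl2, Timp4 and Timp1, and by 5.59% of all tested genes. The interaction estimates on the log2 scale were -0.80 ± 0.21 for Adamts20 (adjusted p = 0.507), 0.82 ± 0.28 for Adamtsl2 (adjusted p = 0.798) and -0.52 ± 0.20 for Timp4 (adjusted p = 0.827). A miss of the threshold does not show that the effects of the drugs add up.

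Other genes of matrix turnover were taken from lists of proteases, inhibitors, activators and substrates. Of 22 tested proteases outside these families, 3 rose and 5 fell with dexamethasone, where 5.45% of all tested genes rose and 5.49% fell. Ctsl, a lysosomal cysteine protease, rose from 311 to 564 CPM (log2 fold change 0.86 ± 0.08, adjusted p = 3.9e-06), and Htra1, a secreted serine protease, fell from 153 to 70.0 CPM (-1.13 ± 0.10, adjusted p = 1.08e-06). LiCl also raised 3 (background 4.71%) and lowered 5 of them (background 5.9%), among which Ctsk, the collagen-cleaving protease of osteoclasts, fell from 103 to 76.7 CPM (-0.42 ± 0.08, adjusted p = 0.00498). Of 17 tested inhibitors and clearance receptors, 4 rose (background 5.45%) and 1 fell (background 5.49%) with dexamethasone. Spock2, whose action on proteases was not checked here, rose from 13.1 to 53.3 CPM (log2 fold change 2.01 ± 0.11, adjusted p = 4.75e-09). A2m, which traps proteases of many classes, rose from 1.26 to 5.30 CPM (2.08 ± 0.25, adjusted p = 3.07e-05). It had 15 to 32 counts in control and reached 60 counts in only 3 libraries, all with dexamethasone, at 62, 65 and 68. A2m was thus tested only because of conditions in which it was high. LiCl raised 2 (background 4.71%) and lowered 3 (background 5.9%) of the 17.

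Of 11 tested activators and partners, Cd44, a hyaluronan receptor that docks MMPs at the cell surface, rose in each comparison with control. It went from 18.5 CPM to 30.0 CPM with dexamethasone (log2 fold change 0.70 ± 0.13, adjusted p = 0.00209), 38.1 CPM with LiCl (1.04 ± 0.13, adjusted p = 1.04e-04) and 85.5 CPM with both (2.20 ± 0.13, adjusted p = 1.25e-08). The proprotein convertase Pcsk5 fell with LiCl from 47.5 to 33.7 CPM (-0.50 ± 0.10, adjusted p = 0.00381). Of 20 tested matrix substrates, 2 rose and 2 fell with dexamethasone (backgrounds 5.45% and 5.49%), and 1 rose and 7 fell with LiCl (backgrounds 4.71% and 5.9%). The ones that fell with LiCl included Ltbp1 (-0.73 ± 0.08), Ltbp2 (-0.85 ± 0.09) and Eln (-0.97 ± 0.13), components of microfibrils and elastic fibres, and Col10a1 (-1.02 ± 0.15), the collagen of hypertrophic cartilage, with adjusted p values of 2.69e-05 to 5.37e-04.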

How the data were processed

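RNA of 12 libraries (3 pools in each of 4 conditions) was measured by sequencing with a strand-specific kit. Each deposited file holds unnormalized counts for one library. The authors aligned reads with Subread, removed duplicates with Picard, counted with HTSeq and merged technical replicates, as the study's methods state. The strand setting of the counting is not given in the sources used here, so overlapping and antisense genes, and close copies among neighbouring MMP genes, may share reads. A human build is named in the submitters' notes although the bones are rat, so the counts carry no coordinates, and those printed belong to RefSeq's GRCr8 promoters. The authors' table of all samples was not used. No read was tagged by molecule, so a limit for a count of 0 covers counting error only.

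Genes with 60 or more counts in at least 2 libraries were kept, as in the study. Counts were scaled by TMM and fitted in edgeR 4.0.16 (R 4.3.3) on all 12 libraries by condition only, and tested two-sided by quasi-likelihood, with Benjamini-Hochberg adjustment over the 12602 genes. A change is an adjusted p under 0.05, and changes past 2-fold, the study's limit, were also counted. The code was tested on simulated data. Library values are printed for members past both limits in any comparison, for Mmp3, Adamtsl4, Adamts6 and for the TIMPs, and for other genes where they add detail. From lists of related genes, up to 4 with the smallest adjusted p were eligible. The members and lists were chosen with earlier results of these data known.

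After subtracting condition means, same-numbered libraries had correlations of 0.133 to 0.5 in every pair of conditions except dexamethasone and control (0.0273 to 0.17). The best match of a library in another condition carried the same number, except for control pool 1 among the dexamethasone pools. Since the study took its pools from 3 rats shared by the conditions, the replicate number may mark a shared rat. The study also ran 3 experiments for RNA, so the number may stand for the experiment as well. The main fit was by condition only and took no account of such pairing. The fit with the number as a term is given where it changes a call. Alternatives were RLE scaling, DESeq2 1.42.0, other count filters, thinning to the smallest library, fits on the groups compared and leaving out each library. Figures were drawn with matplotlib 3.10.9.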

Additional observations from a re-analysis of the deposited data

How the results depend on the processing

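Of 41 calls of the genes given library by library, 30 held in every alternative that tested them, 11 were lost in at least 1 and 0 were reversed. With 1 library left out, the number of changed genes ranged from 14 to 17 for dexamethasone against control, 10 to 12 for LiCl against control, 7 to 14 for LiCl added to dexamethasone, 7 to 15 for dexamethasone added to LiCl and 18 to 20 for both drugs against control, and stayed at 0 for the interaction. In fits that left 2 libraries in a condition, the spread was shared across conditions. In the fit that included the replicate number (the block), the counts were 19, 13, 13, 16, 22 and 0, and no call was lost. Several calls gained in that fit were also gained under other alternatives, Adamts14 and Adamts18 among them. Fitted on the groups compared alone, further calls were lost for Adamts15 with dexamethasone (adjusted p = 0.104), Adamtsl2 (0.0704) and Timp3 (0.067) with LiCl added to dexamethasone, and Adamts4 with both drugs (0.066). Thinned to the smallest library, Mmp15 fell under the count minimum and was not tested, and calls were lost for Adamts15 with dexamethasone (adjusted p = 0.071) and LiCl (0.0668), Mmp23 with LiCl (0.051), Adamtsl2 with LiCl added to dexamethasone (0.086), Mmp14 (0.0546), Timp1 (0.0981) and Timp3 (0.09) with dexamethasone added to LiCl, and Adamts4 with both drugs (0.0692). Timp3 lost its calls for LiCl added to dexamethasone (adjusted p = 0.117) and for dexamethasone added to LiCl (adjusted p = 0.109) when no count filter was used, where more genes were tested, as did Adamts15 with dexamethasone (0.0864), Timp1 with dexamethasone added to LiCl (0.0538) and Adamts4 with both drugs (0.0675). Over all genes, the count of 1379 for dexamethasone was 905 when only the groups compared were fitted, and the count of 1 for the interaction was 25 in DESeq2, 37 with no count filter and 3 with the block. Under RLE scaling no call was lost. Depth limits the genes with few counts, Mmp10, Mmp12 and Adamts8 among them.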
